A study of Mus musculus with 8 samples.

Results

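Mature Ccr7-positive dendritic cells were chosen from single cells of mouse tumours grown from Hepa1-6, a hepatoma cell line. A cell was a member if its mean value of Ccr7, Fscn1 and Ccl22 was at least 1.2, its mean of the T cell genes Cd3g and Trbc2 was below 0.5, and its mean of the macrophage genes C1qa, C1qb and C1qc was below 0.8. Cacnb3, the other gene named for the choice, was not among the 2000 genes of the table analysed here. The choice gave 225 of 53528 cells, or 0.42% (exact 95% binomial interval 0.367% to 0.479%, which covers counting error only). Values are natural logs, in the first of 6 sets of cells of 1 plus the UMIs (unique molecular identifiers, which count captured transcripts) per 10000 UMIs of the cell.

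Dendritic cells take up antigen in tissues and present it to T cells. When they mature they stop taking up antigen and switch on Ccr7, a chemokine receptor that guides them along CCL19 and CCL21 toward lymphatic vessels and lymph nodes. The mature state also includes Fscn1, an actin-bundling protein of dendrites, and Ccl22, a chemokine that draws CCR4-bearing T cells such as regulatory T cells. In tumours such cells carry costimulatory and inhibitory ligands side by side, and both type 1 and type 2 conventional dendritic cells can enter the state.

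The study concerns how loss of Soat1, the gene of a cholesterol-esterifying enzyme, changes the immune cells of tumours, with and without blockade of the checkpoint receptor PD-1. Its labels give 8 entries in 4 groups, each with a cDNA and an oligo entry: WT tumours after intraperitoneal PBS, WT tumours after intraperitoneal PD1 antibody, and tumours labelled Soat1 knockdown in the genotype field (KO in the title) after either injection. The labels name the hepa1-6 line and give no number of animals, no mouse strain or age, and no clone. A final digit of 1 to 6 in each cell's name splits the cells into 6 sets. No label ties a set to a group, so no genotype or treatment was compared. All cells were treated as 1 sample, sets are described by their range, and no p-value is given. Cell names are running numbers, so barcodes shared between libraries could not be counted.

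UMI counts could be recovered for set 1, where 100% of 9370 cells gave a whole UMI total (1001 to 261833, median 11098.5). The 2000 genes of the table hold 15.03% of those UMIs. Values of the other sets had been shifted by a step that the sources used here do not record, with some below 0, so the sets may not be independent of each other. The 24 members of set 1 had 1011 to 59652 UMIs each, with a median of 1978. Other myeloid cells, taken as all cells with a mean of Tyrobp and Fcer1g of at least 1 that were not members, had a median of 2770 UMIs in set 1, where 552 were found among 4566 in all sets.

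Members made up 0.256%, 0.33%, 0.398%, 0.551%, 0.345% and 0.655% of the cells of sets 1 to 6 (24, 25, 47, 43, 28 and 58 cells). Against members plus other myeloid cells, their share lay between 3.7% in set 2 and 6.33% in set 3, with a pooled share of 4.7%. The order of the sets thus differed between the 2 denominators: set 6 led among all cells and set 3 among myeloid cells. Sets 1 and 6 had intervals among all cells that did not overlap (0.164% to 0.381% and 0.498% to 0.846%). The same held for sets 1 and 4 and for sets 2 and 6, with 0.399% to 0.742% in set 4 and 0.214% to 0.487% in set 2. Set 5 (0.229% to 0.498%) met set 6 at the rounded edge. The myeloid shares had overlapping intervals in all 6 sets.

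**Figure D1:**
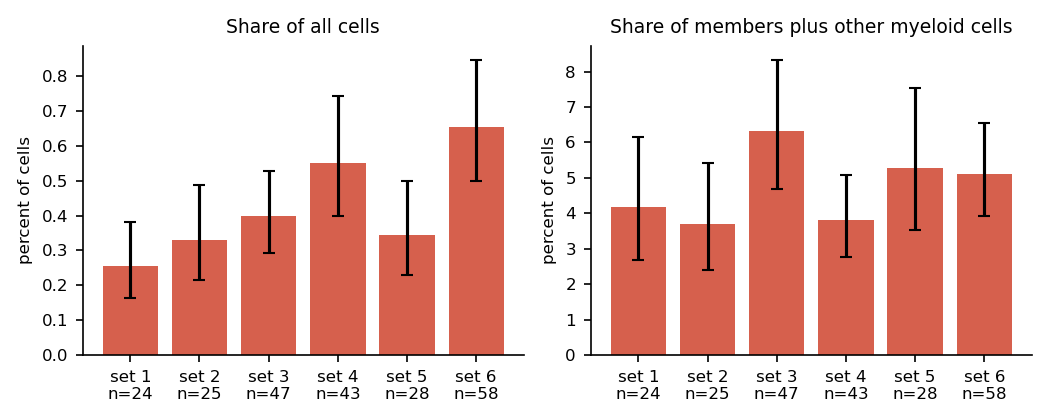
Bars give members as a percent of all cells (left) and of members plus other myeloid cells (right) in each of the 6 sets, with exact 95% binomial intervals and the number of members under each bar. The left panel runs from 0.256% to 0.655% and the right one from 3.7% to 6.33%.

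The 3 genes of the choice are described here without a test, since their values chose the cells. The members' mean of these genes had a median of 2.54 and a highest value of 3.87, and 172 members had at least 2. Just inside the cut, 18 members lay between 1.2 and 1.4, the lowest at 1.209, and just outside it 28 cells lay between 1.0 and 1.2, the highest cell left out standing at 1.197. Another 52 cells passed the cut but not the ceilings, 45 of them for T cell genes and 7 for C1q genes. Counting a value above 0.5 as detection, 145 members had all 3 genes and 68 had 2 of them. Ccr7 was detected in 96.4% of members, Ccl22 in 83.6% and Fscn1 in 79.1%, against 2.21%, 1.75% and 0.482% of other myeloid cells.

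A few members carried the genes of other cells. Ccr7 stood alone in 11 members, with Fscn1 and Ccl22 both below 0.5. In these 11 the median was 3.29 for Igkc, the immunoglobulin kappa constant gene, and 2.97 for Ighm, while Cst3 and Tbc1d4, high in the other 214 members (medians 4.64 and 2.60), had medians of 0.00. Of the 9 members with a mean of at least 0.5 over Cd79b, Ms4a1, Ighd and Igkc, all B cell genes, 8 were in this group of 11. They lay in sets 1 to 4 (4, 2, 1 and 1 cells) and were 4 of the 24 members of set 1. The label of a dendritic cell does not hold for these 8 by their markers. The other member with B cell genes lay in set 4, with a B cell gene mean of 2.73. Its mean of Fscn1 and Ccl22 was 0.72 and its mean of the 3 genes of the choice was 1.21, near the cut. The label is doubtful for it too. In the plot of B cell genes against Fscn1 and Ccl22, all 9 stand apart from the rest by their B cell genes.

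**Figure D2:**
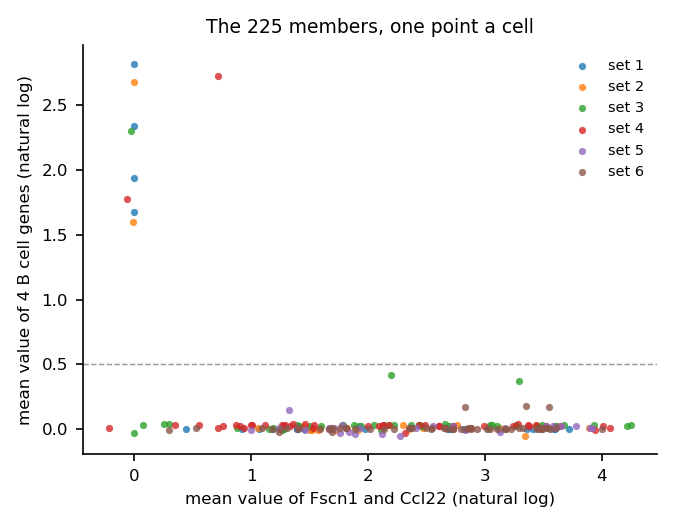
Each point is 1 of the 225 members, with its mean of Fscn1 and Ccl22 on the horizontal axis and its mean of 4 B cell genes on the vertical axis (both natural log values), coloured by set. Of the 9 members above the dashed line at 0.5, 8 have Fscn1 and Ccl22 both below 0.5.

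The deepest member of set 1, with 59652 UMIs, held 47.4% of all 125749 UMIs of the 24 members there. It gave 289 of their 323 UMIs of Afp and 302 of their 328 of Alb, genes of the hepatoma cells, together with 31 UMIs of Ccr7, 15 of Fscn1 and 28 of Ccl22. Values from summed UMIs in set 1 are therefore given with it and, where this moves them by over 1.5 times or turns them, without it. Scrublet, a doublet caller, was set to an expected rate of 6% and called 91 of the 9370 cells of set 1 (0.971%), none of them a member. The deepest member, with its hepatoma gene UMIs, was among the cells not called. Over all sets the set means of 14 hepatoma genes were no higher in members (0.39 to 0.43) than in other myeloid cells (0.46 to 0.49), against 1.51 to 1.63 in 8552 hepatoma cells (mean of Afp, Apoa1, Apoa2 and Ttr of at least 1.5, with Tyrobp and Fcer1g and the T cell genes below 0.5).

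Promoters are printed here for 4 genes that were higher in members than in other myeloid cells in every set. The genes belong to different arms of the mature state: the chemokine Ccl22, the Rab GTPase-activating protein Tbc1d4, the signalling adaptor Samsn1 and the survival gene Bcl2a1b. The promoters come from RefSeq on GRCm38.p6 and were matched by symbol. Each runs 5′ to 3′ on the gene's strand, from 250 bases before the start site to 50 after it. The windows are chr8:94745434-94745733 (Ccl22, plus strand), chr14:101609142-101609441 (Tbc1d4, minus strand), chr16:75909217-75909516 (Samsn1, minus strand) and chr9:89199023-89199322 (Bcl2a1b, plus strand). Capitals mark every match to 3 motifs, each searched on both strands in all 4 windows: GGG and TCC with any 4 bases between them (a loose form of the NF-kB site), GAGGAAG (a PU.1-type core) and TGANTCA (the AP-1 core). Ccl22 and Tbc1d4 hold the NF-kB form, Samsn1 holds GAGGAAG, and Bcl2a1b holds all 3.
Ccl22: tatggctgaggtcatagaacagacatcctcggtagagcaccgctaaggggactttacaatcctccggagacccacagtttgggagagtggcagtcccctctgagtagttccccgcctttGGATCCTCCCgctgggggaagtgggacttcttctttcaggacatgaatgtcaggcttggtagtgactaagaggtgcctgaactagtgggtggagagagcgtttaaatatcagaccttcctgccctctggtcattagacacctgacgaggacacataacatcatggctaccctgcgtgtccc
Tbc1d4: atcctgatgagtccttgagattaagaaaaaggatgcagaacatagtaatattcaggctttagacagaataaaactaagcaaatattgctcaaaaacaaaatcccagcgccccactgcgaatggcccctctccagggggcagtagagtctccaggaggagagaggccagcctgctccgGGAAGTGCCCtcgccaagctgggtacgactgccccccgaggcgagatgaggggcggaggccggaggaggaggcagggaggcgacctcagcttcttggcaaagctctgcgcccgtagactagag
Samsn1: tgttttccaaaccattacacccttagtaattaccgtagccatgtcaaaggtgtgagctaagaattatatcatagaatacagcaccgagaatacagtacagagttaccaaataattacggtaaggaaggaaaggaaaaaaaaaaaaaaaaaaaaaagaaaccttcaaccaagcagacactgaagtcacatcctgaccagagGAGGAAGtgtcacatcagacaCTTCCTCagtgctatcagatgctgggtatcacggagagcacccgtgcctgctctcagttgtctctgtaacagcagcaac
Bcl2a1b: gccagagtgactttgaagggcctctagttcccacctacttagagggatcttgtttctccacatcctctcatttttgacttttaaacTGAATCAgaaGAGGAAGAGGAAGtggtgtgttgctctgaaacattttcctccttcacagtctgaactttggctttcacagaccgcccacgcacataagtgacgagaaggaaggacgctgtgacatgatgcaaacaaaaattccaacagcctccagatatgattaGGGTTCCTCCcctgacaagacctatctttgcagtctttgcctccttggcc

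The matches begin at position -131 in Ccl22, -73 in Tbc1d4, -50 and -29 in Samsn1, and -164 (TGANTCA), -154 and -148 (GAGGAAG, the copies overlapping by 1 base) and 0 (the NF-kB form) in Bcl2a1b, counting the start site as 0. The NF-kB form lies in 19.2% of the 32851 promoters of the table, GAGGAAG in 13.6% and TGANTCA in 7.81%. Among the 58 genes that were higher in members than in other myeloid cells in every set, described next, 44 had a promoter in the table (47 promoters); the others were Anxa3, Ccl5, Ccnd2, Ccr7, Cd83, Fabp5, Gclc, H2afz, Lsp1, Marcks, Rgs1, Selplg, Socs2 and Tnfsf9. Of these 47, 13 held the NF-kB form (27.7%), 12 held GAGGAAG (25.5%) and 4 held TGANTCA (8.51%). A match is a description of the letters and no test was made of these shares. Ccl17, the other CCR4 ligand, lies 64.8 kb from Ccl22 on chromosome 8 with its promoter at chr8:94810203-94810502.

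The label was checked on the 8 of 12 further genes of mature dendritic cells that the table holds: Il4i1, Samsn1, Tbc1d4, Socs2, Anxa3, Apol7c, Ccl17 and Cd83. The lowest of the 6 set means of members was above the highest of other myeloid cells for all 8. Below, each trio of set means gives the lowest, the median and the highest of the 6 sets. Tbc1d4 had 1.98, 2.05 and 2.26 in members and 0.04, 0.05 and 0.07 in other myeloid cells. Samsn1 had 1.92, 2.02 and 2.25 against 0.42, 0.51 and 0.54. The smallest gap was in Apol7c, with 0.07, 0.13 and 0.25 against 0.01, 0.03 and 0.05. Against the type 1 and type 2 cells defined below, Il4i1, Samsn1, Tbc1d4, Socs2 and Anxa3 were at least 0.25 higher in every set. Ccl17 was so against type 1 cells only, and Cd83 and Apol7c against neither. Cd83 had 1.04 to 1.38 in type 1 and 1.45 to 2.65 in type 2 cells, against 1.46 to 2.05 in members. Anxa3 was also above 0.5 in 58.4% of hepatoma cells and 54.2% of members. The label thus held for the set as a whole, apart from the members with B cell genes, though not by every gene against other dendritic cells.

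**Figure D3:**
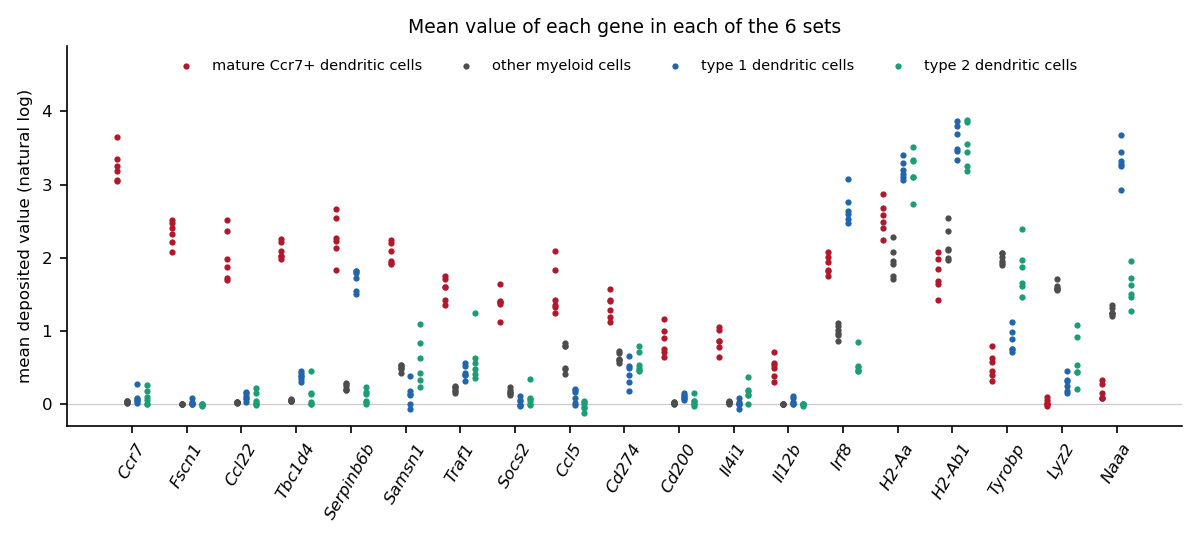
Each point is the mean natural log value of 1 gene in 1 of the 6 sets, for members (red), other myeloid cells (grey), type 1 (blue) and type 2 (green) dendritic cells. Ccr7, Fscn1 and Ccl22 chose the members, and Tyrobp chose the other myeloid cells. The red points of Tbc1d4, Samsn1 and Socs2 lie above all others, and those of H2-Ab1 lie below both dendritic cell types.

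Across the whole table, a gene was called higher or lower when the set means of the 2 classes differed by at least 0.25 in the same direction in every set. Against other myeloid cells 58 of 2000 genes were higher in members (2.9%) and 105 were lower (5.25%). The 58 include the 3 genes of the choice, and the 105 include Tyrobp, Fcer1g and the C1q genes, whose differences follow from how the classes were chosen. Without the deepest member of set 1 the counts were 57 and 105, and without the 11 members with Ccr7 alone they were 61 and 112. With only the other myeloid cells below the C1q ceiling they were 55 and 95, of which 49 and 74 were among the genes first called. The median difference over all 2000 genes was -0.01.

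Most genes of the mature dendritic cell programme were higher in members. Of 26 genes that the choice did not use, 18 were higher in every set and 0 were lower, with a median difference of 0.84 beside the 2.9% called among all genes. Of the 10 cytoskeletal genes 6 were higher, of the 6 genes of NF-kB signalling and survival 4 were higher and 1 was lower, and of 16 regulatory genes 5 were higher and 1 was lower. Against 2.9% higher and 5.25% lower among all genes, there were 1 higher and 6 lower of 28 chemokines. The higher and lower counts were 0 and 2 of 11 migration receptors, 0 and 8 of 20 receptors for uptake and pattern recognition, and 0 and 4 of 12 macrophage genes. The lists share genes, so their counts are not separate results. The higher genes Marcks and Marcksl1 (cytoskeletal), Traf1 (NF-kB) and Cd200, Il4i1 and Socs2 (regulatory) are also counted in the mature programme. So is Cd83 of the costimulation list described below. These lists were chosen with earlier results of the same data known.

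**Figure D4:**
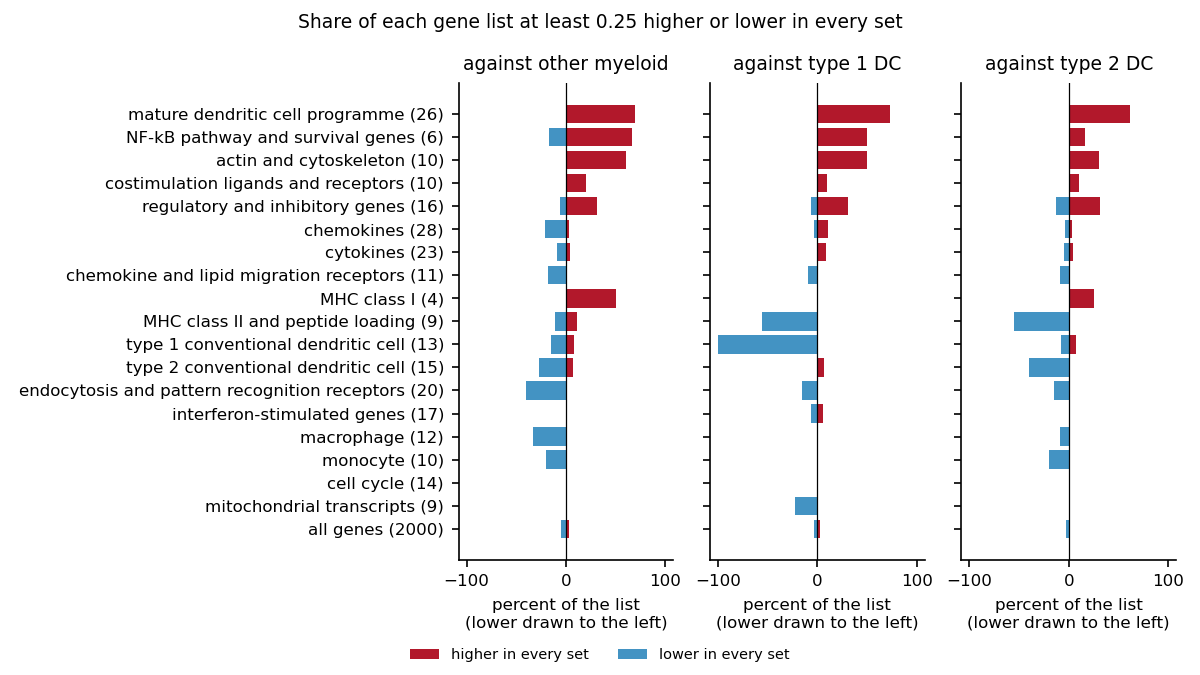
Bars give the percent of each gene list (number of genes in brackets, genes of the choice left out) that was at least 0.25 higher (red, right) or lower (blue, left) in members in every set, against 3 classes of cells. The mature programme reaches 18, 19 and 16 of 26 genes higher, and the MHC class II list turns to 5 of 9 lower against both dendritic cell types. The full bar of the type 1 list against type 1 cells follows in part from Xcr1 and Clec9a, which chose those cells.

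Tbc1d4 was among the 15 genes with the highest ratios, and 6 of 10 cytoskeletal genes were higher in every set. Tbc1d4, which acts on vesicle traffic, was at 851 UMIs per 1000000 (CPM) in the summed members of set 1 and at 13.8 in other myeloid cells, a ratio of 61.8 (exact 95% Poisson interval 40.9 to 96). Without the deepest member it was at 1331 CPM, with a ratio of 96.7. Lsp1, an actin-binding protein of leukocytes, had set means of 1.82, 2.07 and 2.25 against 0.35, 0.42 and 0.48. Marcksl1, a membrane-bound actin regulator, had 1.23, 1.48 and 1.74 against 0.14, 0.20 and 0.21. Neither gene's ranges overlapped between the classes. Tmsb4x, the abundant actin-sequestering thymosin, had 5.40, 5.58 and 5.74 in members, also above the 4.60, 4.75 and 4.79 of other myeloid cells. Myo1g (0.79, 1.15 and 1.51 against 0.24, 0.33 and 0.38) and Rgs1, a brake on chemokine receptor signalling (2.04, 2.56 and 2.69 against 1.28, 1.31 and 1.49), followed the same order. Tmsb10, another thymosin, did not: its set means of 0.90 to 1.28 overlapped the 1.00 to 1.27 of other myeloid cells. Against type 1 dendritic cells 5 of the 10 genes were higher in every set (Marcks, Marcksl1, Myo1g, Rgs1 and Lsp1), beside 2.65% among all genes. Against type 2 cells 3 were higher (Tmsb4x, Marcksl1 and Rgs1), beside 1.75%. The set means of Lsp1 (1.38 to 1.99) and Myo1g (0.63 to 1.52) in type 2 cells overlapped those of members.

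Several further genes were higher in members in every set. Serpinb6b and Serpinb9, inhibitors of granule proteases, had set means of 1.84, 2.25 and 2.66 and of 0.91, 1.10 and 1.36, against 0.20, 0.23 and 0.29 and 0.12, 0.17 and 0.24 in other myeloid cells. Fabp5, a fatty acid carrier, had 2.70, 3.03 and 3.14 against 1.54, 1.68 and 1.81, but 99.6% of hepatoma cells had it above 0.5. Cst3, cystatin C, had 3.75, 4.24 and 4.51 against 2.19, 2.24 and 2.55, but type 1 dendritic cells had more (4.47 to 5.03 by set) and 98.1% of hepatoma cells had it above 0.5. All 4 genes lay above the other myeloid range in every set. Ramp3, a receptor partner of the calcitonin family, was found above 0.5 in 52.9% of members and 2.87% of other myeloid cells, although also in 6.64% of hepatoma cells, which were far deeper (median 21706 UMIs in set 1). Crip1 (2.42, 2.86 and 3.06 against 1.15, 1.25 and 1.35), Basp1 (1.67, 2.13 and 2.41 against 0.73, 0.87 and 1.01), Pkib (1.01, 1.36 and 1.64 against 0.14, 0.19 and 0.27) and Ccnd2, a cyclin (1.05, 1.18 and 1.46 against 0.48, 0.55 and 0.60), were likewise higher in every set. Gclc, a subunit of the enzyme of glutathione synthesis, had 0.44, 0.51 and 0.67 against 0.08, 0.12 and 0.15, but was above 0.5 in 20.9% of members, 12.2% of other myeloid cells and 42.4% of hepatoma cells. With only members that had a mean of Tyrobp and Fcer1g of at least 1, of which set 1 holds 3, the log2 ratio of Gclc there was -5.11 in place of 2.84.

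Of 28 chemokine genes that the choice did not use, Ccl5 was higher in members in every set, and Ccl2, Ccl3, Ccl4, Ccl6, Ccl24 and Cxcl2 were lower. Ccl17, the neighbour of Ccl22, was above 0.5 in 30.2% of members (20.8% to 39.7% by set) and 1.51% of other myeloid cells. Its set means of 0.09, 0.44 and 0.54 lay above the 0.00, 0.03 and 0.05 of other myeloid cells, but the gap fell short of 0.25 in at least 1 set. In set 1 it gave 21 UMIs in members and 2 in 552 other myeloid cells, a ratio of 182 (44.5 to 1601), or 264 without the deepest member. Ccl5, a chemokine that attracts T cells, had set means of 1.25, 1.39 and 2.09 in members and 0.41, 0.65 and 0.83 in other myeloid cells.

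The summed UMIs of Ccl5 did not show the same order. Its ratio in set 1 was 0.902 (0.703 to 1.14) with all 24 members and 1.46 (1.11 to 1.88) without the deepest. Other myeloid cells of set 1 held 1456 CPM of 12 NK genes, members 7.95, and with cells high in T and NK genes left out of the former the log2 ratio of Ccl5 was 2.94. In share of cells with a UMI, after each cell was thinned to 1000 UMIs, Ccl5 was found in 20.8% of members (7.13% to 42.2%), 11.2% of other myeloid cells and 0.834% of hepatoma cells. Before thinning the shares were 54.2%, 15.6% and 17.2%.

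Ccl4, a chemokine of activated macrophages, had set means of 0.05, 0.13 and 0.30 in members and 1.14, 1.2 and 1.31 in other myeloid cells. Cxcl2, which attracts neutrophils, had 0.05, 0.21 and 0.30 against 1.12, 1.2 and 1.45, and its 3 UMIs in 24 members gave a ratio of 0.0127 (0.00262 to 0.0372), or 0.0161 without the deepest. Ccl6 (0.00, 0.14 and 0.21 against 0.97, 1.08 and 1.21) and Ccl24 (0.01, 0.16 and 0.34 against 0.83, 1.19 and 1.5) were lower too, with no overlap. Ccl2, which recruits monocytes, and Ccl3 and Ccl8 gave 0 UMIs in the members of set 1. Against a floor of 3 UMIs over the group they were at least 18.7-fold, 10.9-fold and 18.8-fold lower there, or 9.85-fold, 5.75-fold and 9.91-fold without the deepest member. The interferon-induced Cxcl10 was level: 0.43, 0.71 and 0.80 in members and 0.63, 0.66 and 0.83 in other myeloid cells. Cxcl9, another ligand of CXCR3, had 0.29, 0.48 and 0.87 against 0.63, 0.88 and 1.11, with overlapping ranges.

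Of 11 migration receptors other than Ccr7, 2 were lower in members and 0 were higher, beside 5.25% lower and 2.9% higher among all genes. Ccr2, the monocyte receptor, had set means of at most 0.11 in members and at least 0.63 in other myeloid cells. Ccr1, a receptor of inflammatory chemokines, was lower as well (at most 0.14 against at least 0.56). Gpr183, an oxysterol receptor that positions dendritic cells, was slightly higher in members (0.27, 0.33 and 0.50 against 0.10, 0.13 and 0.15), with non-overlapping ranges and a difference below 0.25 in some sets.

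Il12b, the p40 subunit of the T cell-priming cytokines IL-12 and IL-23, was the cytokine gene that set members apart. Its set means were 0.30, 0.51 and 0.71 in members and at most 0.01 in other myeloid cells. It was above 0.5 in 21.8% of members, from 8% to 31% by set, and in 0.504% of other myeloid cells and 0.0468% of hepatoma cells. In set 1, 5 of 24 members held its 43 UMIs (at most 22 in 1 cell), and other myeloid cells held 1 UMI, a ratio of 745 (127 to 30113), or 1418 without the deepest member. Of 23 cytokine genes it was the 1 that was higher, while Il1b and Il1rn were lower, beside 2.9% higher and 5.25% lower among all genes. The cytokine list as a whole was thus near those shares. Il1b had 0.39, 0.57 and 0.82 against 1.59, 1.73 and 1.94, and Il1rn, its receptor antagonist, 0.31, 0.41 and 0.52 against 0.74, 0.77 and 0.86. Il6 had low set means that were higher in members in every set (0.02, 0.08 and 0.16 against 0.00, 0.02 and 0.03), and was above 0.5 in 12% of members (3.57% to 20.7% by set), 3.64% of other myeloid cells and 0.269% of hepatoma cells. Tnf was at most 0.12 in members and 0.16 to 0.27 in other myeloid cells.

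Costimulation genes were higher for 2 of 10 measured and lower for 0, beside 2.9% higher and 5.25% lower among all genes. Cd83, a maturation marker that stabilises MHC class II at the surface, had 1.46, 2.00 and 2.05 in members and 0.68, 0.77 and 0.93 in other myeloid cells. In type 2 dendritic cells Cd83 had 1.45 to 2.65, a range that overlaps that of members. Tnfsf9, the ligand of 4-1BB, had 0.41, 0.54 and 0.69 against 0.06, 0.09 and 0.10. Cd86, a ligand of CD28 and CTLA-4, had 0.55, 0.84 and 1.21 against 0.34, 0.41 and 0.47, above in every set but by less than 0.25 in at least 1. Tnfrsf9, the receptor 4-1BB, had 0.38, 0.50 and 0.52 against 0.10, 0.13 and 0.19, while Cd48 was level at 0.31, 0.38 and 0.49 against 0.31, 0.37 and 0.42. Tnfsf4, the ligand of OX40, was low in both, at most 0.18 in members. In type 1 dendritic cells Cd86 had 0.77 to 0.90, within the range of members. It was above 0.5 in 60.6% of type 1 cells and 56.9% of members.

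Of 16 regulatory genes, 5 were higher in members in every set. Cd274, which encodes the PD-1 ligand PD-L1, had set means of 1.12, 1.35 and 1.57 in members and 0.57, 0.62 and 0.73 in other myeloid cells. It was above 0.5 in 70.7% of members, 39.1% of other myeloid cells and 12.8% of hepatoma cells. Cd200, an inhibitory ligand, had 0.64, 0.83 and 1.17 against at most 0.03, with 20 UMIs in the members of set 1 against 5 and a ratio of 69.3 (25.2 to 236), or 132 without the deepest. Il4i1, a secreted amino acid oxidase, had 0.64, 0.86 and 1.05 against at most 0.04. It was found in 57.8% of members and 1.8% of other myeloid cells. Socs2, a suppressor of cytokine signalling, had 1.12, 1.39 and 1.64 against 0.12, 0.17 and 0.23, and Il2ra, the IL-2 receptor alpha chain, 0.30, 0.48 and 0.66 against 0.02, 0.02 and 0.03.

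Other regulatory genes did not follow. Socs3 was lower in members (0.35, 0.52 and 0.82 against 1.03, 1.06 and 1.18), and Havcr2, which encodes TIM-3, had at most 0.04 in members and at least 0.25 in other myeloid cells. Arg1, an arginine-degrading enzyme, had 0.06, 0.09 and 0.11 against 0.30, 0.32 and 0.46. Ido1 and Il10 had set means of at most 0.01 and 0.04 in members, near the level of other myeloid cells (at most 0.02 and 0.06).

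Of 6 genes of NF-kB signalling and survival, Traf1 and 3 Bcl2a1 genes were higher in members than in other myeloid cells in every set. Traf1, an NF-kB target that carries TNF receptor signals, had set means of 1.36, 1.60 and 1.75 against 0.15, 0.21 and 0.25, and a ratio of 8.36 in set 1 (5.92 to 11.7), or 15 without the deepest member. Bcl2a1b, an anti-apoptotic BCL2 relative, had 1.65, 1.92 and 2.13 against 0.88, 0.93 and 0.99. Its near-copies Bcl2a1a and Bcl2a1d had 1.22, 1.37 and 1.71 and 0.88, 1.22 and 1.46, against at most 0.55 and 0.52. How reads were split among these copies is not given in the sources used here, so they are best read as 1 family, and the same holds for H2-Q6 and H2-Q7. Tnfaip2 went the other way, with 0.09, 0.18 and 0.24 against 0.72, 0.81 and 0.85. Nr4a3, a nuclear receptor of activated dendritic cells, had 0.93, 1.21 and 1.35 against 0.23, 0.26 and 0.30. Of the 6 NF-kB and survival genes, Traf1, Bcl2a1b and Bcl2a1d were higher in every set against type 1 dendritic cells, beside 2.65% among all genes. Only Bcl2a1a was higher in every set against type 2 cells, beside 1.75%. Traf1 had set means of 0.36 to 1.25 in type 2 cells, the highest in set 1, where members had 1.36.

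Antigen presentation genes divided, beside 2.9% higher and 5.25% lower than in other myeloid cells among all genes. Against other myeloid cells, 1 of 9 class II genes was higher (H2-Aa, 2.24, 2.54 and 2.87 against 1.71, 1.94 and 2.28, with ranges that overlap) and 1 was lower (Ctss, the cathepsin that trims the invariant chain, 1.38, 1.5 and 1.74 against 2.29, 2.46 and 2.75). H2-Ab1 had 1.42, 1.76 and 2.08 against 1.97, 2.11 and 2.54, and Cd74, the invariant chain itself, 2.15, 2.33 and 2.56 against 2.23, 2.39 and 2.78. In summed UMIs of set 1 the ratio of H2-Aa was 0.729 (0.621 to 0.851) with all members and 1.29 (1.09 to 1.51) without the deepest. H2-Aa was also above 0.5 in 54.5% of hepatoma cells, at 141 CPM in set 1 against 1336 in members (2360 without the deepest). Of the class I genes, H2-Q7 (1.27, 1.54 and 1.74 against 0.69, 0.76 and 0.78) and H2-Q6 were higher, while H2-K1 stood at 3.29, 3.31 and 3.65 against 3.04, 3.10 and 3.26.

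Of 20 receptors for uptake and pattern recognition, 8 were lower in members than in other myeloid cells in every set, beside 5.25% among all genes. The lysosomal genes that follow were lower too. Psap, the precursor of lysosomal saposins, had 1.5, 1.69 and 2.16 in members and 3.20, 3.39 and 3.76 in other myeloid cells. Ctsb, a lysosomal protease, had 0.32, 0.57 and 0.82 against 1.83, 2.04 and 2.30. Lyz2, lysozyme, gave 0 UMIs in the members of set 1 and 3415 in other myeloid cells, at least 65.7-fold lower against the floor of 3 UMIs, or at least 34.5-fold without the deepest member. The Fc receptors Fcgr2b (at most 0.08 against at least 0.82) and Fcgr3 (at most 0.02 against at least 0.78), the mannose receptor Mrc1 (at most 0.01 against at least 0.33) and the scavenger receptor Msr1 (at most 0.13 against at least 0.54) were lower in every set. Summed over 20 uptake and recognition receptors, members of set 1 held 47.7 CPM (75.6 without the deepest) and other myeloid cells 3008, and 16 of the 20 genes gave 0 UMIs in members. Against type 1 cells 3 of the 20 were lower (Clec9a, Clec12a and Cd36), beside 3.1% among all genes. Against type 2 cells 3 were lower (Cd209a, Clec10a and Fcgr2b), beside 3.15%. Clec9a and Cd209a chose those classes. Mrc1 was above 0.5 in 1.78% of members and 0.73% of type 1 cells, and Msr1 in 2.22% and 3.65%.

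Genes of macrophages and monocytes were low as well: Ms4a6c had set means of at most 0.07 in members and at least 1.16 in other myeloid cells. Ly6c2, the monocyte surface gene, had at most 0.00 against at least 0.30. The other myeloid cells also held genes of other lineages, chosen in with Tyrobp and Fcer1g. Their summed level in set 1 was 4211 CPM for 13 neutrophil genes (95.4 in members) and 1456 CPM for 12 NK genes (7.95 in members, or 15.1 without the deepest, with 11 of the 12 at 0 UMIs). The NK protease genes Gzma and Gzmc and the neutrophil gene Camp gave 0 UMIs in members and were at least 28-fold, 19.5-fold and 29.6-fold lower, or 14.7-fold, 10.3-fold and 15.6-fold without the deepest member. The part of these lineages in the differences was not tested beyond the alternatives given. Interferon-stimulated genes gave 0 calls in either direction among 17, and cell cycle genes 0 among 14. The interferon list still leaned lower, with a median difference of -0.19 to -0.10 by set. In set 1, 13 of its 17 genes were at least 2-fold lower and 1 higher, against 688 lower and 396 higher of 2000. Its sum there was 962 CPM in members (1377 without the deepest) and 2538 in other myeloid cells. Cell cycle genes summed to 2107 CPM (227 without the deepest) and 955. Isg15 had 0.35, 0.44 and 0.74 in members and 0.87, 0.91 and 1.00 in other myeloid cells.

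**Figure D5:**
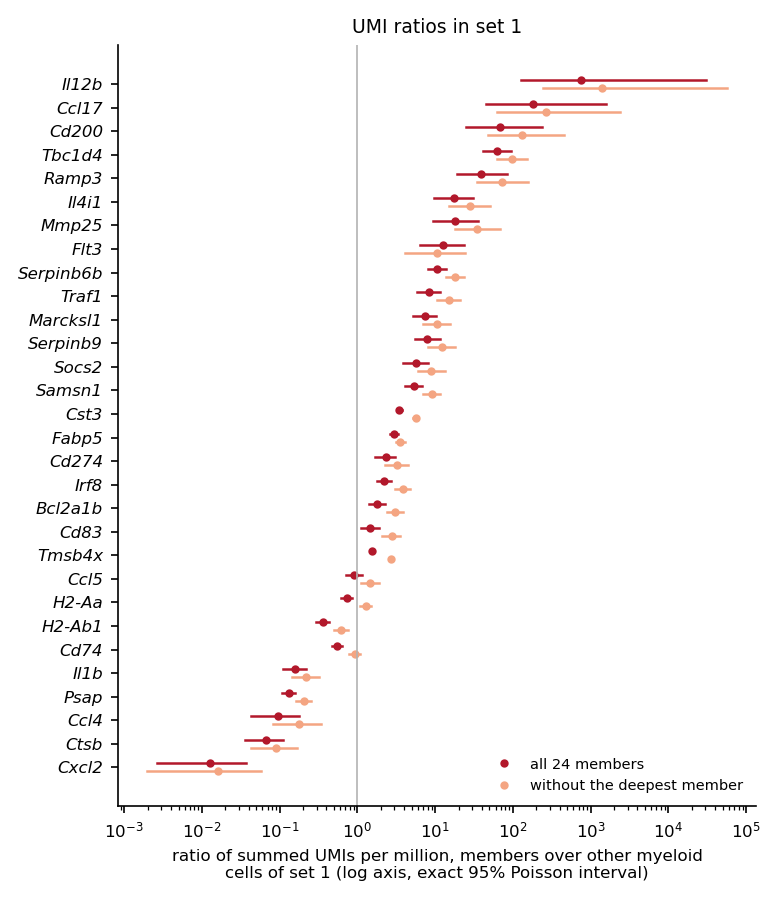
Points give the ratio of summed CPM in members over other myeloid cells of set 1 on a log axis, with exact 95% Poisson intervals (counting error only), for all 24 members (dark) and without the deepest (light). Dark points run from 745 for Il12b to 0.0127 for Cxcl2 and light ones from 1418 to 0.0161, and those of Ccl5 and H2-Aa cross 1 when the deepest member is left out.

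Members were next set against the other dendritic cells of the tumours. Type 1 cells, which present tumour antigen to CD8 T cells, were taken as cells with a mean of Xcr1 and Clec9a of at least 1, and type 2 cells, which favour CD4 T cells, as cells with Cd209a of at least 1.5, both under the same T cell and C1q ceilings and each counted where its own score was the higher. This gave 137 type 1 cells (12 to 38 per set) and 88 type 2 cells (7 to 21 per set). Against type 1 cells 53 genes were higher in members in every set (2.65%) and 62 were lower (3.1%). Against type 2 cells 35 were higher (1.75%) and 63 lower (3.15%). Of the 26 genes of the mature programme, 19 and 16 were higher and 0 were lower. These 2 comparisons share the members with the one above, and their classes are small.

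Of 9 MHC class II genes, 5 were lower in members than in type 1 cells, 5 were lower than in type 2 cells, and 0 were higher than in either. H2-Ab1 had 1.42, 1.76 and 2.08 in members, 3.34, 3.58 and 3.87 in type 1 cells and 3.19, 3.51 and 3.88 in type 2 cells. Cd74 had 2.15, 2.33 and 2.56 in members against 3.40, 3.67 and 3.83 and 3.39, 3.75 and 4.11. For H2-DMa, a subunit of the peptide-loading chaperone, the values were 0.52, 0.55 and 0.99 against 1.44, 1.59 and 1.65 and 1.47, 1.60 and 1.83. None of these ranges overlapped with those of members. Itgax, the integrin CD11c by which dendritic cells are often sorted, was lower too (0.09, 0.24 and 0.27 against 0.92, 1.25 and 1.45 and 0.80, 1.06 and 1.67).

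All 13 type 1 genes were lower than in type 1 cells, 2 of them (Xcr1 and Clec9a) by the choice of that class. Naaa, a lysosomal amidase, had 0.08, 0.12 and 0.33 in members and 2.93, 3.30 and 3.68 in type 1 cells. Irf8, a transcription factor that type 1 cells need, was intermediate: 1.75, 1.89 and 2.08 in members, 2.47, 2.62 and 3.07 in type 1 cells, 0.45, 0.49 and 0.85 in type 2 cells and 0.87, 1.00 and 1.11 in other myeloid cells. Serpinb6b, at 1.84 to 2.66 in members, was also high in type 1 cells (1.5 to 1.82) and low in type 2 cells (at most 0.23). S100a4, a calcium-binding protein, had the opposite order, with 1.16, 1.43 and 1.85 in members, at most 0.11 in type 1 cells and 1.38, 1.95 and 2.22 in type 2 cells. Flt3, the growth factor receptor of dendritic cells, had 0.31, 0.39 and 0.50 in members, 0.68, 0.74 and 1.05 in type 1 and 0.20, 0.40 and 0.84 in type 2 cells.

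Apart from the mature programme, members exceeded type 1 cells in Cxcl10 (0.43, 0.71 and 0.80 against 0.05, 0.16 and 0.45) and Osm (0.47, 0.63 and 0.73 against at most 0.16). Ckb, Asb2, Alox5ap, Gatm and Plbd1, named with Naaa for the lowest ratios against type 1 cells, had set means of at most 0.16, 0.18, 0.13, 0.11 and 0.43 in members and at least 1.29, 1.15, 1.11, 0.70 and 2.32 in type 1 cells. Gm42674, an unnamed predicted gene, was higher than in type 1 cells (0.67, 0.95 and 1.05 against at most 0.00). Against type 2 cells, members had less Klf4 (0.35, 0.49 and 0.70 against 1.16, 1.57 and 2.52), Ccl4 (0.05, 0.13 and 0.30 against 1.13, 1.36 and 2.73), Il1b (0.39, 0.57 and 0.82 against 1.32, 2.00 and 3.67), Atf3 (0.81, 0.89 and 1.27 against 1.71, 2.22 and 3.20) and the heat shock gene Hspa1a (0.73, 0.89 and 1.22 against 2.27, 2.46 and 3.16). Atf3 and Hspa1a are stress-response genes. Ndrg1 was higher than in type 2 cells (0.73, 0.98 and 1.06 against 0.00, 0.28 and 0.63), and so were Ccl5 (1.25 to 2.09 against at most 0.04) and Cd86 (0.55, 0.84 and 1.21 against 0.00, 0.15 and 0.31).

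Scored per cell as the mean of each list, members had a median of 0.22 on the type 1 list (10th to 90th percentile 0.04 to 0.48) and 0.21 on the type 2 list (0.00 to 0.47). Type 1 cells had 1.56 and 0.10, and type 2 cells 0.29 and 0.97. The 90th percentile of members lay below the 10th percentile of type 1 cells (0.56) on the type 1 list and of type 2 cells (0.65) on the type 2 list. These gaps follow at least in part from how the classes were chosen. The type 1 list holds Xcr1 and Clec9a and the type 2 list holds Cd209a, and scores without these genes were not computed. Xcr1 was above 0.5 in 4 members, Clec9a in 11 and Cd209a in 2.

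Among members, genes varied together within sets. The values that follow are Spearman correlations over the members of 1 set, without B cell gene members. Each is given as the median and range over 6 sets. No test was made, since the cells of a set are not replicates. Class II genes moved as a block: 0.80 (0.48 to 0.89) for H2-Aa with H2-Eb1 and 0.79 (0.61 to 0.83) for H2-Eb1 with Cd74. Il4i1 went with them, at 0.43 (0.26 to 0.70) with Cd74, as did S100a4 at 0.37 (0.21 to 0.44). Ccl5 was negative with Cd74 (-0.38, -0.52 to -0.16) and H2-Eb1 (-0.30, -0.57 to -0.03) in all 6 sets, and was positive with H2-Ab1 in 1 set and with H2-Aa in 2. Serpinb6b was negative with H2-Ab1 in all 6 sets (-0.39, -0.47 to -0.09) but took both signs with H2-Aa (-0.07, -0.52 to 0.28), H2-Eb1 (-0.11, -0.47 to 0.20) and Cd74 (-0.15, -0.40 to 0.23). Cd200 was positive with Serpinb6b, at 0.35 (0.31 to 0.58), and was negative with Il4i1 in all 6 sets (-0.14, -0.29 to -0.05).

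Among the 3 genes of the choice, whose correlations the cut on their mean constrains, Ccr7 had -0.15 (-0.41 to 0.23) with Fscn1 and 0.02 (-0.21 to 0.27) with Ccl22, and Fscn1 had 0.18 (-0.06 to 0.44) with Ccl22. Of the 39 genes compared in this way, Ccr7 had its highest medians with Rgs1, at 0.48 (0.26 to 0.61), and Samsn1, at 0.42 (0.15 to 0.52). Ccl22 and its neighbour Ccl17 had 0.40, but from -0.13 to 0.57 by set. Il12b was positive with Cst3 in all 6 sets (0.30, 0.17 to 0.47) and negative with Fabp5 in all 6 (-0.22, -0.77 to -0.03).

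Genes with the pattern most like the mean of the choice's genes were sought over all members and other myeloid cells. Since this mean chose the members, genes higher in members tend to rank high. The ranking is thus a description and not separate support for the differences above. By the median Spearman correlation over 6 sets they were Uchl1 (0.33), Bex2 (0.32), Tbc1d4 (0.28), AU016765 (0.27) and Dqx1 (0.26). Uchl1 had set means of at most 0.06 in members. Values of sets 2 to 6 carry the unrecorded shift, and its part in the rank of such low genes was not tested. In set 1, with unshifted values in 576 cells, the order was Tbc1d4 (0.52), Cd200 (0.50), Bcl2l14 (0.41), Ramp3 (0.40) and Il4i1 (0.39). For all of these genes set 1 had the highest value of the 6 sets. Their medians over sets were 0.28 for Tbc1d4, 0.04 for Cd200, 0.19 for Bcl2l14 and Ramp3 and 0.15 for Il4i1. Tbc1d4 was the only gene in both lists of 5. Its UMIs were found in 18 of 24 members and 18 of 552 other myeloid cells of set 1, and after thinning to 1000 UMIs in 62.5% (40.6% to 81.2%) and 1.63%, against 0.574% of hepatoma cells. Before thinning, the shares were 75%, 3.26% and 15.8%.

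Finally, members were short of the 2 genes that mark the comparison class. Tyrobp, an adaptor of activating receptors, had 0.32, 0.51 and 0.80 in members, 0.72, 0.83 and 1.12 in type 1 cells and 1.47, 1.76 and 2.40 in type 2 cells. Fcer1g, a partner chain, had 0.24, 0.30 and 0.37, above the 0.09, 0.14 and 0.20 of type 1 cells and below the 1.15, 1.53 and 1.70 of type 2 cells. Of the 225 members, 37 had a mean of at least 1 over both genes.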

How the data were processed

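Dissociated tumour cells went through DNBelab C4 droplets into 3′ libraries, per the labels' protocols. The series' design text names STAR 2.7.2b with GRCh38 for alignment, barcodeRanks of DropletUtils for choosing cells and PISA for counting UMIs. The submitters' processing notes name both GRCh38 and mm10, so the build is not settled and genes were used by symbol. The deposited numbers are natural log values. In set 1 each is the natural log of 1 plus UMIs per 10000 UMIs of the cell, and for sets 2 to 6 the later steps are not given in the sources used here. All 53528 columns belong to no known sample.

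Set 1 counts were recovered as whole numbers (tolerance 0.01; 100% of nonzero values), after the recovery was tested on simulated cells. CPM is summed UMIs over summed totals, with exact Poisson intervals for ratios, Clopper-Pearson intervals for shares (95%) and a floor of 3 UMIs. A gene was called at a difference of at least 0.25 in every set. No cell was filtered out, and cells called doublets by Scrublet (scanpy 1.11.5) were kept. Promoters came from RefSeq (GRCm38.p6).

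Members and gene lists were chosen with earlier results of these data known. Named genes were the 15 highest and 10 lowest by log2 ratio in set 1 (pseudocount 1 CPM, at least 30 UMIs in the higher class, same direction in 6 sets), 6 each way against type 1 and type 2 cells, the leading genes of each list and those a paragraph is about. Some genes are not reported here and were left out of the lists. Alternatives are in the closing section. Computation used Python 3.11.15, numpy 2.4.6, scipy 1.17.1 and matplotlib 3.10.9.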

Additional observations from a re-analysis of the deposited data

How the results depend on the processing

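Each alternative changed 1 choice, and 4 were chosen after seeing the data: leaving out the deepest member of set 1, leaving out the members with Ccr7 alone, and narrowing other myeloid cells to those below the C1q ceiling or low in T and NK genes. No paired analysis was possible because the sets carry no replicate number of the labels. Of 181 values of counts and lists, 157 stayed within their limit, 21 moved and 3 changed sign; of 592 log2 ratios of 37 genes, 476 stayed, 105 moved and 11 changed sign. Members were 0.521% of cells without Fscn1 in the choice, 0.503% without Ccl22, and 4.7% of members plus other myeloid cells. The list medians that follow are log2 ratios in set 1, as reported 1.51 for the mature programme, 0.46 for regulatory genes, -2.94 for chemokines, -0.46 for MHC class II, 0.61 for cytoskeletal and 0.97 for NF-kB and survival genes. Requiring a mean of Tyrobp and Fcer1g of at least 1 left 37 members (0.0691%) and 57 lower genes, 52 of them shared, with 2.91 for the mature programme, -2.50 for regulatory genes, 0.64 for MHC class II, 2.51 for NF-kB and survival genes, -5.11 for Gclc, 1.12 for Ccl5 and 1.06 for H2-Aa. Requiring a mean of Afp, Apoa1, Apoa2 and Ttr below 0.5 left 131 members (0.245%), with 2.46 for the mature programme, -4.32 for chemokines, 0.28 for MHC class II, 1.28 for cytoskeletal genes, 0.27 for Ccl5 and 0.36 for H2-Aa. Without the deepest member the values were 2.15 (mature programme), 0.37 (MHC class II), 1.18 (cytoskeletal), 1.71 (NF-kB and survival), 0.54 (Ccl5) and 0.37 (H2-Aa). With other myeloid cells low in T and NK genes they were 2.11 for the mature programme and 2.94 for Ccl5. Chemokines had -1.69 and MHC class II -0.98 without Ccr7 in the choice, and chemokines -6.21 over genes with at least 10 UMIs. As a mean over cells Ccl5 was 0.32 and H2-Aa 0.23, and thinned to 1000 UMIs Ccl5 was 0.44. The cause of these shifts was not tested. Of the 58 and 105 genes called, 57 and 101 kept their direction in every set by share of cells above 0.5. With 24 members in set 1 and a median of 1978 UMIs, genes below a few UMIs per cell cannot be compared there.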
